A study of Mus musculus with 2 samples.

Results

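The interstitial stromal cells of the mouse testis were taken as 255 of the 26466 cell barcodes of 2 single-cell RNA libraries. A barcode was a stromal cell when it held 3 or more unique molecular identifiers (UMIs, the counted molecules) summed over Dcn, Col1a1, Col1a2, Col3a1, Lum, Pdgfra, Igf1 and Tcf21. These UMIs had to come from 2 or more of the 8 genes and to make up 8 or more per 10000 of the barcode's UMIs. There were 134 such cells among 12661 barcodes of the high-fat library and 121 among 13805 barcodes of the second library, whose label gives tissue but no diet and which is called here the library with no named diet. Since the 8 genes chose the cells, their levels below are a description.

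The tissue came from a diet experiment on male C57 BL/6 mice that asked how a fatty diet affects sperm production. The mice entered at 5 weeks of age, had 1 week on maintenance feed and then 12 weeks on a diet, in 2 arms of 10 mice. The high-fat arm ate feed with 60% of its energy as fat, and the normal arm stayed on maintenance feed; the label of the second library does not say which arm it came from. Both libraries are labelled as germ cells, which the stromal cells are not. No transgene, deletion or drug is named for either library. Whether a library holds 1 mouse or a pool is not given either. With 1 library per group there was no test, so "higher" and "lower" compare these libraries and not the diets, and every interval given is a 95% interval for counting error only.

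Testicular stromal cells, a kind of fibroblast, lie between the seminiferous tubules beside the steroid-making Leydig cells, vessels and macrophages. They lay down collagens and proteoglycans, and they carry the PDGF receptor alpha, through which platelet-derived growth factors act. Cells that express Tcf21, a transcription factor of mesenchyme, have been described in the mouse testis as a reserve for Leydig and peritubular myoid cells.

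The chosen cells were small RNA samples. Their median was 2391.5 UMIs in the high-fat library and 1797 in the library with no named diet, against medians of 9772 UMIs (high-fat) and 13024 UMIs (no named diet) over all barcodes of those libraries. The stromal cells held 371877 UMIs in the high-fat library and 356113 in the library with no named diet, out of 201842085 UMIs in the high-fat library and 207667609 UMIs in the other. A few deep cells weighed on these sums. The 13 cells above 5000 UMIs held 22.9% of the stromal UMIs in the high-fat library, and 13 such cells held 42.0% in the library with no named diet. The deepest single cell had 12332 UMIs in the high-fat library and 24985 in the other. Thinned to 1000 UMIs each, the cells showed a median of 736 genes in the high-fat library and 737 in the library with no named diet. The libraries shared 1507 barcode names, which are running numbers and do not identify a cell.

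**Figure D1:**
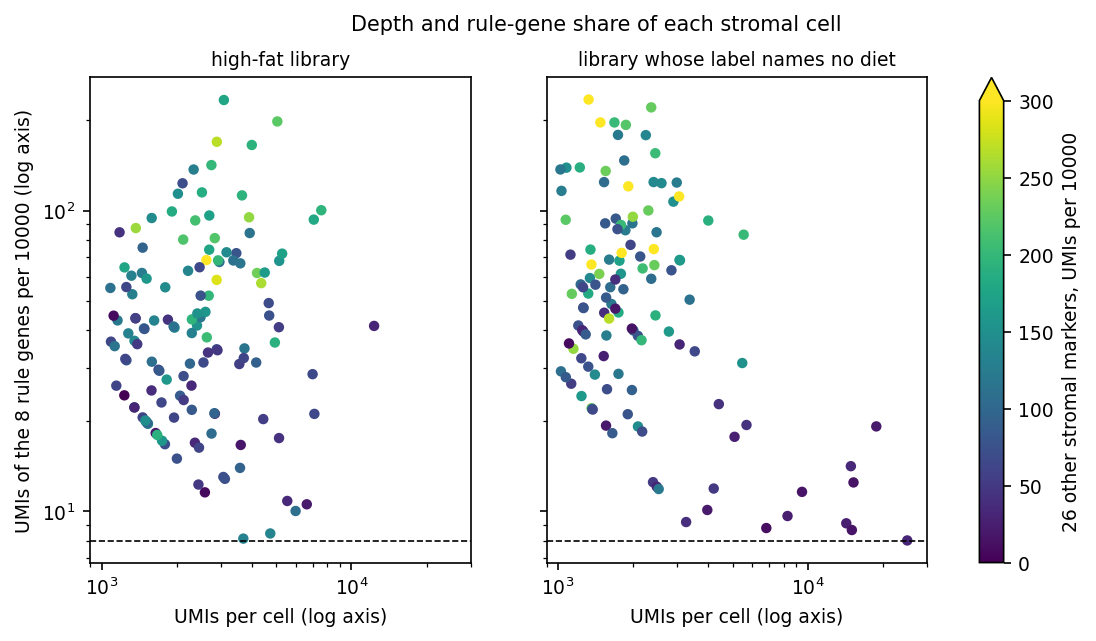
Each dot is 1 stromal cell, placed by its total UMIs (x, log axis) and by the UMIs of the 8 rule genes per 10000 (y, log axis), with the high-fat library on the left; colour gives the 26 other stromal markers per 10000, and the dashed line is the rule's limit of 8. The deepest cells of the library with no named diet, up to 24985 UMIs, lie near the limit and are low in the other stromal markers.

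The stromal share was 1.06% of barcodes (exact Clopper-Pearson interval 0.887 to 1.25) in the high-fat library and 0.876% (0.728 to 1.05) in the library with no named diet. The ratio of the shares was 1.21, with an interval of 0.937 to 1.56 that includes 1. The share moved with depth: among barcodes of 2000 UMIs or more, 83 stromal cells gave 0.850% in the high-fat library and 49 gave 0.428% in the library with no named diet. Cells under 2000 UMIs numbered 51 in the high-fat library and 72 in the other.

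Most cells were well inside the rule and some were at its edge. The summed rule-gene UMIs had a median of 8.5 per cell (3 to 100) in the high-fat library and 10 (3 to 52) in the library with no named diet. Exactly 3 UMIs were held by 18 cells in the high-fat library and 13 in the other. Only 2 of the 8 genes were seen in 42 cells in the high-fat library and 30 cells in the other, and 4 or more genes in 58 cells of the high-fat library and 59 of the library with no named diet. The lowest share among chosen cells was 8.12 per 10000 in the high-fat library and 8.005 in the other. Just outside, 49 barcodes of the high-fat library and 74 of the library with no named diet had enough UMIs and genes but fell under 8 per 10000, with highest shares of 5.49 in the high-fat library and 7.54 in the other.

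Decorin carried most of the selection. Dcn, a proteoglycan that binds collagen fibrils, stood at 3240 CPM (counts scaled to 1000000 stromal UMIs; Poisson interval 3060 to 3429) in the high-fat library and 2777 (2607 to 2956) in the library with no named diet. It was seen in 91.8% of the stromal cells of the high-fat library and 96.7% of those of the other. Sertoli barcodes, the supporting cells of the tubules, were set beside them, with Dcn in 0.426% (high-fat) and 0.687% (no named diet). The 23 (high-fat) and 13 (no named diet) Sertoli barcodes that met the stromal rule had been left out. The low Dcn share of the rest was thus partly set by the rule and is no full measure of free RNA. No order of the libraries is read from the shares of stromal cells, which run against the CPM. The chosen cells held 78.2% of all Dcn UMIs of the high-fat library and 78.5% of those of the other.

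The collagen genes divided in how far they belonged to these cells. Col1a2, a chain of collagen I, had 710 CPM in the high-fat library and 593 in the library with no named diet, and 73.7% (high-fat) and 71.3% (no named diet) of all its UMIs lay in the stromal cells. Col1a1, the partner chain, had 288 CPM in the high-fat library and 185 CPM in the other, but only 24.0% (high-fat) and 4.74% (no named diet) of its UMIs lay there. In the library with no named diet, 1326 Col1a1 UMIs were spread over 782 barcodes outside the rule, whose median depth was 19410 UMIs, against 339 UMIs in 214 barcodes in the high-fat library. Col3a1, of collagen III, had 148 CPM in the high-fat library and 135 in the other, with 45.1% (high-fat) and 12.6% (no named diet) of its UMIs in stromal cells. The spread of Col1a1 and Col3a1 over deep barcodes was therefore larger in the library with no named diet, where neither marks stromal cells alone.

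The growth-factor and regulator genes of the rule were less abundant. Pdgfra, the PDGF receptor alpha, had 202 CPM in the high-fat library and 152 in the library with no named diet. Igf1, the insulin-like growth factor, had 452 CPM (386 to 525) in the high-fat library and 609 CPM (531 to 696) in the other. It was the 1 abundant rule gene with a lower level in the high-fat library. Tcf21 had 161 CPM in the high-fat library and 112 CPM in the other, and 73.2% (high-fat) and 85.1% (no named diet) of all its UMIs lay in the stromal cells. Lum, the proteoglycan lumican, was nearly absent, with 2 UMIs in the high-fat library and 6 in the other, so the rule in effect used 7 genes. Dcn and a collagen I chain together were found in 96 cells of each library, and Pdgfra or Tcf21 in 70 cells of the high-fat library and 63 of the other.

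**Figure D2:**
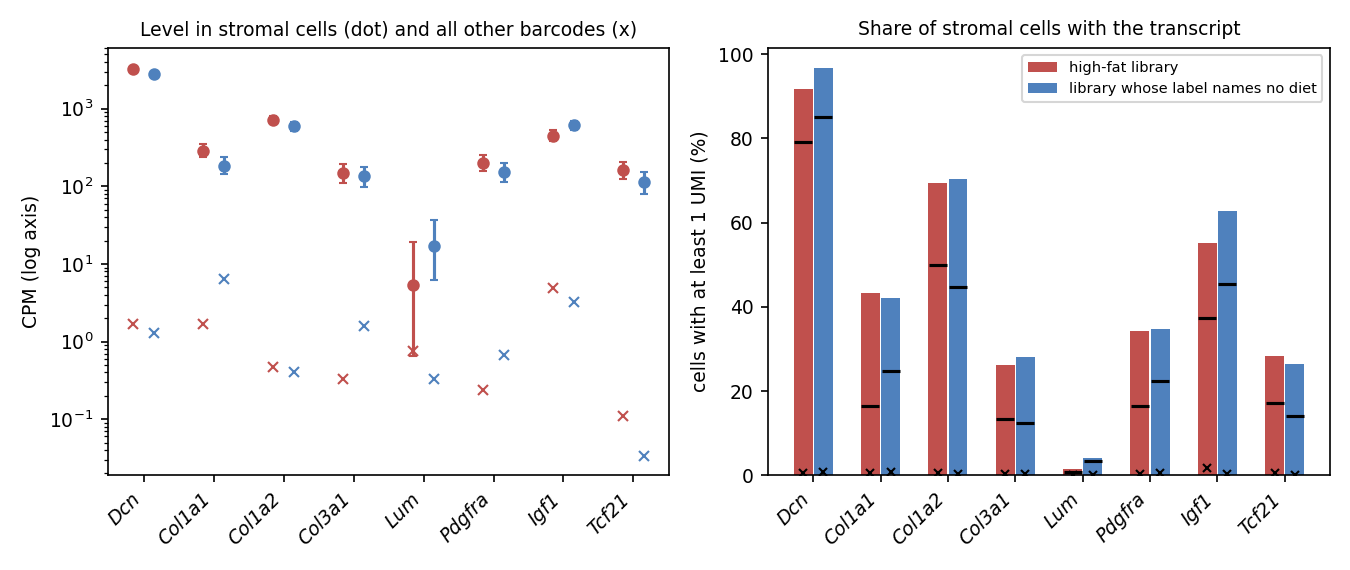
The left panel gives the level of each rule gene (CPM, log axis) in stromal cells as dots with Poisson intervals and in all other barcodes as crosses, high-fat library left of the library with no named diet. The right panel gives the share of stromal cells with at least 1 UMI (bars) and the share after thinning to 1000 UMIs (dashes). Its crosses give the share in Sertoli barcodes that did not meet the stromal rule. Dcn leads the bars at 91.8% in the high-fat library and 96.7% in the other.

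Markers that the rule did not use sit with the label, although they come from the same cells and are no test of it. Of 26 further stromal markers, 25 were detected in both libraries, each at 2-fold or more the level in all other barcodes; Inmt was at 0 in both. Their summed level was 11609 CPM in the stromal cells of the high-fat library and 9385 CPM in those of the other, against 158 CPM (high-fat) and 120 CPM (no named diet) in the remaining barcodes.

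Markers of neighbouring cell types ranged from absent to well above their level in the other barcodes. The Leydig list gave 22 UMIs in the high-fat library and 15 in the library with no named diet, and its steroid enzymes Cyp11a1, Hsd3b1, Hsd3b6 and Hsd17b3 were at 0 in both. Macrophage markers gave 3 UMIs in the high-fat library and 2 UMIs in the other, and the mesothelial list gave 0 in both. Pecam1, a defining endothelial gene, was at 0 in both libraries, while the endothelial list as a whole gave 51 UMIs in the high-fat library and 78 UMIs in the other, of which Ly6c1 supplied 31 UMIs in the high-fat library and 53 UMIs in the other. Peritubular myoid markers gave 811 UMIs in the high-fat library, 507 of them in 1 cell, and 198 UMIs in the other, with at most 70 in a cell. Lymphocyte markers gave 36 UMIs in the high-fat library, 29 of them in 1 cell, and 3 in the other. The Sertoli list stood at 659 CPM (high-fat) and 573 CPM (no named diet), against 273 CPM and 127 CPM in the other barcodes. The pericyte list stood at 186 CPM (high-fat) and 73.0 CPM (no named diet), against 3.11 CPM and 3.94 CPM. By marker rules of the same form, 23 stromal cells of the high-fat library and 13 of the library with no named diet also passed as Sertoli cells, and 12 (high-fat) and 6 (no named diet) as myoid cells. With the Leydig and endothelial rules, 31 cells (23.1%, high-fat) and 20 cells (16.5%, no named diet) met at least 1 other rule. Scrublet, a caller of droplets with more than 1 cell, marked 0 stromal cells in the high-fat library and 1 in the other.

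Germ cell transcripts were present in nearly all of the stromal cells. The 8 spermatid markers summed to 5147 CPM in the high-fat library and 2348 CPM in the library with no named diet, and the 6 spermatocyte markers to 5424 CPM in the high-fat library and 7068 CPM in the other. Together these lists reached 55.7% (high-fat) and 53.8% (no named diet) of their level in the whole libraries. By summed UMIs, the spermatid list was higher in the high-fat library and the spermatocyte list lower. The median cell held 43.9 spermatid UMIs per 10000 (high-fat) and 17.8 (no named diet). For the spermatocyte list the medians ran against the sums, at 55.5 (high-fat) and 50.8 (no named diet) per 10000. No order of the libraries is therefore read from it. Both lists together had medians of 101.9 (high-fat) and 69.9 (no named diet) per 10000. For the differences between the libraries described further on, the levels were also taken with free RNA subtracted. The subtraction was scaled to the summed shares of 55.7% (high-fat) and 53.8% (no named diet). Of the 382 genes then called higher in the high-fat library, 233 remained measured and 226 of those kept the call; of the 307 called lower, 77 remained measured and 73 of those kept it.

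The genes furthest above the other barcodes are given as a description, since the rule used this contrast. Of 1155 genes with 50 or more UMIs in the stromal cells of each library, 249 (21.6%) were at 2-fold or more and 156 (13.5%) at 10-fold or more over the other barcodes in both libraries. With the 8 rule genes set aside, Igfbp6, which binds insulin-like growth factors, led with 3695 CPM in the high-fat library and 2842 CPM in the library with no named diet, 1245 times (high-fat) and 1336 times (no named diet) the level in the other barcodes. It was seen in 91.0% (high-fat) and 91.7% (no named diet) of the stromal cells. Among Sertoli barcodes outside the stromal rule it was seen in 0.851% (high-fat) and 0.883% (no named diet). Adamts5, a protease of proteoglycans, had 511 CPM in the high-fat library and 477 in the other. Cyp26b1, which breaks down retinoic acid, had 1065 CPM in the high-fat library and 581 CPM in the other and stood 1147 times (high-fat) and 1106 times (no named diet) above the other barcodes. In the mouse testis retinoic acid is the signal that starts meiosis, and Cyp26b1 limits it.

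Further leaders fell into a few roles. Serping1, the inhibitor of complement C1, had 936 CPM in the high-fat library and 755 in the other, and the protease C1s1, its target, had 196 CPM in the high-fat library and 166 CPM in the other. Serpinf1, an inhibitor of vessel growth, had 312 CPM in the high-fat library and 317 CPM in the other. Mgp, an inhibitor of calcification, had 2455 CPM in the high-fat library and 2030 CPM in the other, and Gsn, which severs actin filaments, 2431 CPM in the high-fat library and 2620 CPM in the other. Apoe, the apolipoprotein of lipid transport, had 4394 CPM in the high-fat library and 2536 CPM in the library with no named diet. Thbd, a brake on clotting, Cd248, a surface protein of fibroblasts and pericytes, the amino acid transporter Slc38a5, Entpd2, Gstt1, Ogn, Ecm1, Rarres2, Fgl2, Fcgrt and Pmp22 completed the leading 20.

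Compared with other somatic cells chosen by marker rules of the same form, the stromal profile stood apart gene by gene to different degrees. After cells that met more than 1 rule were set aside, 103 stromal, 40 Leydig, 56 peritubular myoid, 23 endothelial and 1584 Sertoli barcodes remained in the high-fat library, and 101, 15, 112, 79 and 987 in the library with no named diet. Cyp26b1 stood at 1029 CPM (high-fat) and 601 CPM (no named diet) in stromal cells, at 0 in Leydig and endothelial barcodes of both libraries, and at 17.0 CPM (high-fat) and 7.50 CPM (no named diet) in myoid barcodes. Adamts5 had 481 CPM (high-fat) and 466 CPM (no named diet) in stromal cells and at most 24.3 CPM in the other 4 kinds. Mgp and Apoe were shared with endothelial barcodes, where Mgp had 365 CPM in the high-fat library and 695 CPM in the other and Apoe 1023 CPM in the high-fat library and 185 CPM in the other.

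Some genes of matrix and signalling were higher elsewhere. Sparc, a matricellular protein, had 1393 CPM (high-fat) and 906 CPM (no named diet) in stromal cells but 5241 CPM (high-fat) and 3862 CPM (no named diet) in endothelial barcodes. Cxcl12, a chemokine that holds progenitors in place, had 150 CPM (high-fat) and 87.9 CPM (no named diet) in stromal cells and 603 CPM (high-fat) and 667 CPM (no named diet) in endothelial barcodes. Aldh1a1, which makes retinoic acid, had 413 CPM (high-fat) and 186 CPM (no named diet) in stromal cells and 329 CPM (high-fat) and 964 CPM (no named diet) in Leydig barcodes, so its order between these kinds differed between the libraries, with 40 Leydig barcodes in the high-fat library and 15 in the other.

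**Figure D3:**
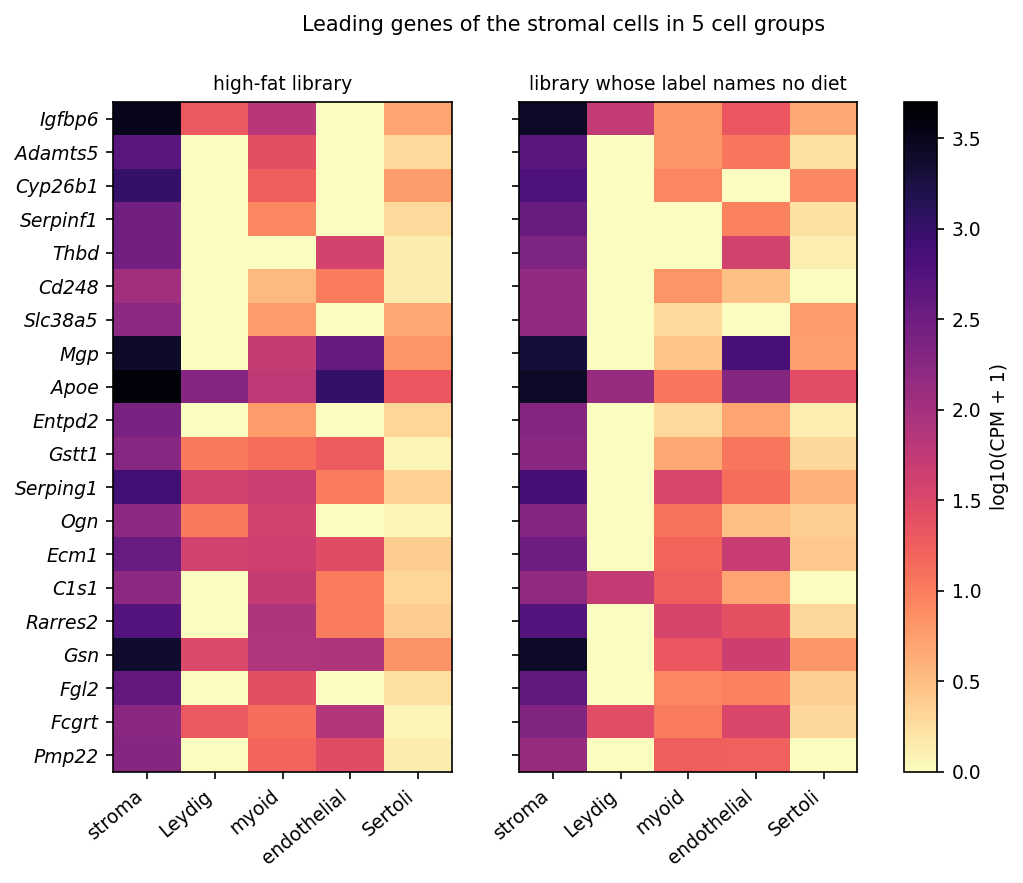
Levels of the 20 leading stromal genes as log10(CPM + 1) in stromal, Leydig, peritubular myoid, endothelial and Sertoli barcodes that met 1 rule only, for the high-fat library (left) and the library with no named diet (right). The stromal column is dark throughout; Mgp and Apoe are also dark in endothelial barcodes.

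The stromal cells were not uniform. Clustered on their own, they fell into 4 sub-clusters, which are left without cell type names; the genes that define them are given as a description. Sub-cluster 0, of 26 cells from the high-fat library and 47 from the other, was led by Socs3, Cxcl1, Zfp36, Egr1, Junb and Ier2, genes that respond within minutes to outside signals. Its immediate early list summed to 13586 CPM, against 4483, 1082 and 1727 CPM in sub-clusters 1, 2 and 3. It also had the highest rule-gene sum, 8186 CPM.

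Sub-cluster 1 held 19 cells of the high-fat library and 21 of the library with no named diet. It was led by Myl9, Crip1, Gng11, C1qtnf9, Ly6c1, Mylk, Ccn1 and Des, several of them genes of contractile cells. The peritubular myoid list reached 6514 CPM there, against at most 537 CPM in the other sub-clusters, and the pericyte list 609 CPM against at most 83 CPM. These values came from few cells: 6 of the 40 cells held 770 of the 802 myoid UMIs, and 3 cells held 64 of the 75 pericyte UMIs. The median cell held 1 myoid UMI, and without the 6 cells the myoid list stood at 316 CPM. The part of cells joined in 1 droplet in this was not tested.

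Sub-cluster 2 held 26 cells of the high-fat library and 24 of the other. It was led by L3mbtl4, Ror1, Greb1l, Nhs and Gli2, and its ribosomal protein list was lowest, at 16179 CPM against 50929 CPM in sub-cluster 0. Its oxidative phosphorylation list was also low, at 5759 CPM against 10984.5 CPM in the rest, as was oxidative stress, at 4631 CPM against 10162 CPM. Pdgfra stood at 385 CPM in the high-fat library and 426 CPM in the library with no named diet there. Ptch1, the receptor and target gene of Hedgehog signalling, had 298 CPM (high-fat) and 252 CPM (no named diet) there, against at most 99.1 CPM in the other sub-clusters of either library. Gli2, a transcription factor of the Hedgehog pathway, had 212 CPM there and 5.03 CPM in the rest.

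Sub-cluster 3 held 63 cells of the high-fat library and 29 of the library with no named diet. It was led by Slc35g3, Tssk4, Spatc1l and Iqcf5, the testis-specific kinase Tssk4 being a gene of late germ cells, and it had the lowest rule-gene sum, 2673 CPM, and the lowest sum of other stromal markers, 6019 CPM. Within it, Dcn had 2202 CPM in the high-fat library and 1097 CPM in the other. The germ cell lists that differ between the libraries also define sub-cluster 3, so no difference in sub-cluster size is read from these numbers.

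**Figure D4:**
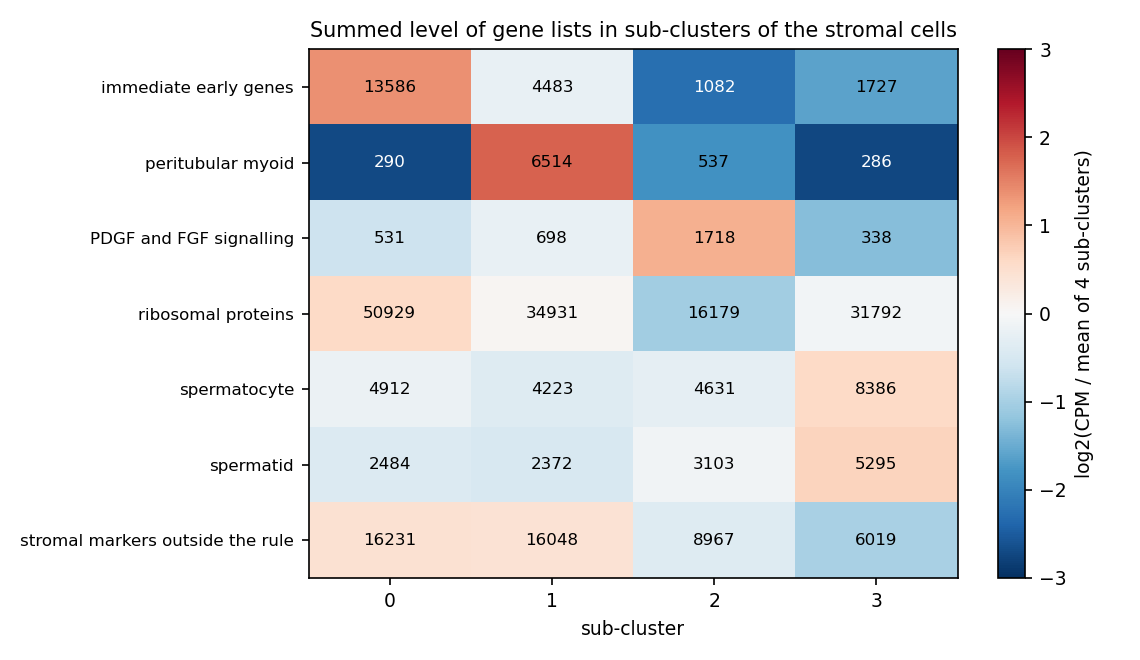
Summed level of 7 gene lists (rows) in the 4 sub-clusters of the stromal cells (columns), both libraries together; numbers are CPM and colour is log2 of CPM over the mean of the 4 sub-clusters. Immediate early genes stand out in sub-cluster 0 (13586 CPM), myoid markers in sub-cluster 1 (6514 CPM, with 770 of 802 UMIs in 6 cells) and PDGF and FGF signalling in sub-cluster 2 (1718 CPM).

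The high-fat library was then set against the library with no named diet within the stromal cells. Of 6358 genes with 20 or more UMIs over both, 382 (6.01%) were higher by 2-fold or more with an interval that excluded 1, and 307 (4.83%) were lower in the same way; the median log2 ratio was -0.01. Among the 2036 genes outside the rule enriched 2-fold or more in stromal cells, 205 (10.1%) were higher and 49 (2.41%) lower, with a median log2 ratio of 0.32. That median was -0.11 when each cell was weighted equally, which removes the pull of the deep cells, so a general tilt is not read from it. A gene past the limits is called higher or lower below.

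Several of the largest differences were ribosomal genes and their copies, and these ran through the whole libraries. Rpl26, a ribosomal protein gene, had 1097 CPM in the stromal cells of the high-fat library and 36.5 CPM in those of the other, and 739 CPM (high-fat) and 34.0 CPM (no named diet) in the other barcodes. Gm15772, listed in RefSeq with the synonym Rpl26, had 0 UMIs in the high-fat library and 187 UMIs in the other. Rpl14 had 503 CPM in the high-fat library and 22.5 CPM in the library with no named diet, while its copy Rpl14-ps1 had 16.1 CPM in the high-fat library and 219 CPM in the other. Reads of near-identical copies can be assigned to either, so these levels are uncertain. All 32 ribosomal genes measured lay above the median of all genes. Of these, 5 (15.6%) were called higher, against 6.01% of all measured genes. The list median was 0.54, but 0.34 with each cell weighted equally and 0.35 after thinning to 1000 UMIs. In total, 165 of the 689 called genes differed by 2-fold or more between the libraries in the other barcodes too.

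The genes highest in the stromal cells of the high-fat library and enriched in stroma included a hormone gene. Sct, which encodes the hormone secretin, had 72 UMIs in 38 cells of the high-fat library and 6 UMIs in 5 cells of the library with no named diet, or 194 CPM in the high-fat library and 16.8 CPM in the other. The ratio was 11.5 (5.03 to 32.3), and it was a higher call under all of the 14 other settings. Ifitm1, of the interferon-induced transmembrane family, had 24 UMIs in the high-fat library and 2 UMIs in the other, a ratio of 11.5 with a wide interval of 2.85 to 100.3.

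Others of this group were seen in few cells. Olfml3, a secreted matrix protein, had 51 UMIs in 34 cells of the high-fat library and 6 UMIs in 5 cells of the other, a ratio of 8.14 (3.49 to 23.2). Wfdc1, a secreted protease inhibitor-like protein, had 29 UMIs in the high-fat library and 3 UMIs in the other. Clic4 had 28 UMIs in the high-fat library and 3 UMIs in the other, Alpl, the tissue-nonspecific alkaline phosphatase, 23 UMIs in the high-fat library and 3 UMIs in the other, and Asb2 19 UMIs in the high-fat library and 3 UMIs in the other. Gm10073, Tnni3, Wdr83os and Rpl14 were also among the leading 12. In each of the 4 sub-clusters Sct, Olfml3, Ifitm1 and Alpl stood higher in the high-fat library. These directions are a description, since the genes were picked by their ratios in the same cells. They also rest on few UMIs, as for Ifitm1 in sub-cluster 2, with 2 UMIs (high-fat) and 0 (no named diet). The equally weighted log2 ratio was 3.29 for Sct and 2.35 for Olfml3.

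Fewer stroma-enriched genes were lower in the high-fat library than higher, 49 against 205. C1qtnf9, which encodes a secreted relative of adiponectin, had 2 UMIs in the high-fat library and 19 in the library with no named diet, a log2 ratio of -3.31. Ifi202b, an interferon-inducible gene, had 0 UMIs in the high-fat library and 22 UMIs in the other. With a floor of 3 UMIs over the cells its ratio was 0.131, and the counting interval reached up to 0.175. Gsta4, a glutathione transferase that clears products of lipid oxidation, had 12 UMIs in 12 cells of the high-fat library and 47 UMIs in 35 cells of the other, a ratio of 0.245 (0.118 to 0.468), although in the other barcodes its level was 9.86 CPM in the high-fat library and 5.07 CPM in the other. Csmd1 had 11 UMIs in the high-fat library and 45 UMIs in the other, and Tenm3, Snd1 and Gtf3c2 had 4, 5 and 4 UMIs in the high-fat library and 16, 21 and 18 in the other. Most UMIs of Csmd1, Tenm3 and Snd1 lay in sub-cluster 2. Its cells held 9, 3 and 3 of them in the high-fat library and 38, 12 and 13 in the other. Csmd1, Ifi202b, Tpm3-rs7, Gm8623, Rpl21-ps15, Rpl14-ps1 and Gm11942 were also lower by 2-fold or more in the other barcodes.

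Interferon-response and class I presentation genes formed the list with the highest median. Of 8 measured, 4 were higher (50%, against 6.01% of all measured genes and 10.1% of stroma-enriched genes). The 1 lower gene made 12.5%, against 4.83% of all measured genes and 2.41% of stroma-enriched genes. The median log2 ratio was 1.14 and stayed above 0 under every setting tried (0.22 to 1.57). B2m, the light chain of class I molecules, had 438 CPM in the high-fat library and 143 CPM in the library with no named diet, a ratio of 3.06 (2.22 to 4.28), seen in 66 cells in the high-fat library and 33 cells in the other. Bst2, an antiviral membrane protein, had 108 CPM in the high-fat library and 28.1 CPM in the other, and H2-D1, a class I heavy chain, 88.7 CPM in the high-fat library and 33.7 CPM in the other. The log2 ratio of H2-D1, 1.40, became 0.53 without barcodes that met another somatic rule, and its call was lost. Irf1, a transcription factor of the interferon response, ran the other way, with 40.3 CPM in the high-fat library and 104 CPM in the other. Ifitm3, at 1062 CPM in the high-fat library and 593 CPM in the other, and H2-K1, at 151 CPM in the high-fat library and 81.4 CPM in the other, were under 2-fold. Endothelial barcodes had more B2m and Bst2 than stromal cells: B2m stood at 1196 CPM in the high-fat library and 864 CPM in the other and Bst2 at 356 CPM (high-fat) and 84.6 CPM (no named diet) there. Beside this, endothelial markers in the stromal cells gave 51 UMIs in the high-fat library and 78 in the other; their part in the result was not tested.

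Matrix genes gave scattered calls. None of the 3 fibrillar collagen genes measured, all of them rule genes, and none of the 4 other non-basement collagens was called. In the small proteoglycan list Bgn, biglycan, was higher, with 799 CPM in the high-fat library and 309 CPM in the library with no named diet (ratio 2.59, 2.07 to 3.25), while Ogn had 204 CPM in the high-fat library and 194 CPM in the other and Prelp 108 CPM in the high-fat library and 104 CPM in the other. Bgn was seen in 91 cells of the high-fat library and 52 of the other, but its log2 ratio of 1.37 became 0.82 with each cell weighted equally.

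Basement membrane genes gave 2 higher calls of 10 measured (20%), against 6.01% higher over all measured genes and 10.1% among stroma-enriched genes. The count by itself does not set the list apart. Hspg2, perlecan, had 91.4 CPM in the high-fat library and 28.1 CPM in the other, and Col4a1, of collagen IV, 320 CPM in the high-fat library and 146 CPM in the other. Its partner chain Col4a2 had 148 CPM in the high-fat library and 157 CPM in the other, a ratio of 0.941 (0.636 to 1.39), against 2.19 (1.57 to 3.10) for Col4a1, so the intervals of the pair do not overlap. Col4a1 also fell short of 2-fold with equal weighting, at a log2 ratio of 0.58, and it was not called in 5 of the settings tried, among them without barcodes that met another somatic rule. Beside this, the myoid list in the stromal cells stood at 2181 CPM in the high-fat library and 556 CPM in the other; its part in the result was not tested. Among laminin chains, Lama2 had 465 CPM in the high-fat library and 284 CPM in the other, a ratio of 1.64 (1.28 to 2.12).

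Elastic fibre and matricellular genes gave 4 higher calls (25%) and no lower one among 16, against 6.01% higher and 4.83% lower over all measured genes. Among stroma-enriched genes 10.1% were higher and 2.41% lower. Ccn2, a connective tissue growth factor, had 231 CPM in the high-fat library and 61.8 CPM in the library with no named diet, a ratio of 3.74 (2.32 to 6.28). Ccn1 had 116 CPM in the high-fat library and 33.7 CPM in the other, Smoc2 175 CPM in the high-fat library and 61.8 CPM in the other, and Mfap4, a microfibril protein, 116 CPM in the high-fat library and 30.9 CPM in the other. Ccn1 was also a leading gene of sub-cluster 1, which holds the 6 cells rich in myoid markers. Without the cell richest in myoid markers in each library, 371 genes were higher and 308 lower. The list median was 0.41, but -0.22 with equal weighting.

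Enzymes of the matrix ran both ways. Of 13 measured, Fkbp10, Loxl1 and Serpinh1, which fold and cross-link collagen and elastin, were higher, and Mmp14, a membrane protease of collagen, was lower. That is 23.1% higher and 7.69% lower, against 6.01% and 4.83% of all measured genes. Among stroma-enriched genes the shares were 10.1% and 2.41%. Serpinh1 had 191 CPM in the high-fat library and 81.4 CPM in the other. Fkbp10, Loxl1 and Serpinh1 were each not called in at least 2 of the settings tried. Mmp14 had 35.0 CPM in the high-fat library and 73.0 CPM in the other. Timp2, an inhibitor of such proteases, had 718 CPM in the high-fat library and 974 CPM in the other, a ratio of 0.737 (0.626 to 0.867), under the limit of 2-fold.

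Lipid genes gave 2 higher and 1 lower call of 16 (12.5% and 6.25%); among all stroma-enriched genes 10.1% were higher and 2.41% lower, so the count by itself does not set the list apart. G0s2, an inhibitor of the triglyceride lipase ATGL, had 229 CPM in the high-fat library and 64.6 CPM in the library with no named diet, a ratio of 3.54 (2.21 to 5.88), in 35 cells in the high-fat library and 18 cells in the other. Apod, a lipid-binding lipocalin, had 91.4 CPM in the high-fat library and 242 CPM in the other, a ratio of 0.379 (0.247 to 0.569). Plpp3, a lipid phosphatase, had 866 CPM in the high-fat library and 424 CPM in the other, and its log2 ratio of 1.03 fell to 0.52 with equal weighting; it was not called in 7 of 14 settings. Apoe was under 2-fold, at a ratio of 1.73 (1.60 to 1.88), and Pnpla2, which encodes ATGL, had 153 CPM in the high-fat library and 95.5 CPM in the other. The list median of 0.60 remained above 0 under every setting (0.39 to 0.72).

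Retinoid enzymes differed in direction. Aldh1a1 had 419 CPM in the high-fat library and 205 CPM in the other, a ratio of 2.05 (1.54 to 2.74), and it was not called in 6 of the settings tried. Aldh1a2 had 40.3 CPM in the high-fat library and 129 CPM in the other and Aldh1a3 18.8 CPM in the high-fat library and 50.5 CPM in the other, both lower. Aldh1a2 was no more abundant in stromal cells than in the other barcodes, where it had 83.8 CPM in the high-fat library and 141 CPM in the other. Esr1, the oestrogen receptor alpha, was not called, with 45.7 CPM in the high-fat library and 53.4 CPM in the other.

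Growth factor pathways held few measured genes and at most 1 call per list. Higher calls made 20% of the PDGF and FGF list and 12.5% of the TGF-beta and BMP list. They made 20% of the Hedgehog, Wnt and Notch list. Over all measured genes 6.01% were higher and 4.83% lower, and 10.1% and 2.41% of stroma-enriched genes. With so few genes 1 call makes each share, so the counts by themselves do not set these lists apart. In the IGF and insulin list 0 of 9 measured genes were called; Igf2 had 72.6 CPM in the high-fat library and 124 CPM in the library with no named diet, and Igf1r 126 CPM in the high-fat library and 112 CPM in the other. Gas6, a ligand of TAM receptors, was the only call among 5 PDGF and FGF genes, with 137 CPM in the high-fat library and 59.0 CPM in the other. Its log2 ratio of 1.22 became 0.81 with equal weighting, and its call was lost. Fstl1, which binds BMPs, was the only call among 8 TGF-beta and BMP genes, with 140 CPM in the high-fat library and 56.2 CPM in the other, and its log2 ratio of 1.32 became -0.02 when cells were thinned to 1000 UMIs. Tcf7l2, of the Wnt pathway, was the only call among 5 genes of the Hedgehog, Wnt and Notch list; Ptch1 had 94.1 CPM in the high-fat library and 47.7 CPM in the other, a ratio of 1.97 (1.08 to 3.75). In the list of stromal transcription factors Osr2 was higher; it had 309 CPM in the high-fat library and 126 CPM in the other, while its relative Osr1 had 137 CPM in the high-fat library and 146 CPM in the other.

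Stress, energy and inflammation genes were mostly within 2-fold. Over all measured genes 6.01% were higher and 4.83% lower. Beside this, 10% of the oxidative stress genes were lower. Higher calls made up 16.7% of chaperones, 11.8% of immediate early genes, 7.69% of arrest and death genes and 6.67% of complement and chemokine genes. Of 20 oxidative stress genes, Sod2, the mitochondrial superoxide dismutase, and Gsta4 were lower. Sod2 had 94.1 CPM in the high-fat library and 312 CPM in the other, but it was more abundant in the remaining barcodes, at 299 CPM in the high-fat library and 503 CPM in the other, where its log2 ratio was -0.75. None of 26 oxidative phosphorylation genes was called, and their median was -0.06. Among 15 complement and chemokine genes, Cxcl10 was the only call, with 22 UMIs in the high-fat library and 5 UMIs in the other, of which 1 cell held 40.9%. Of 12 chaperones Hspb1, a small heat shock protein, was higher at 134 CPM in the high-fat library and 25.3 CPM in the other, as was Hspa1a, whose log2 ratio of 1.29 became 0.26 with equal weighting. Of 17 immediate early genes Myc and Atf3 were higher, and of 13 genes of cell cycle arrest and death Ccnd2 was.

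**Figure D5:**
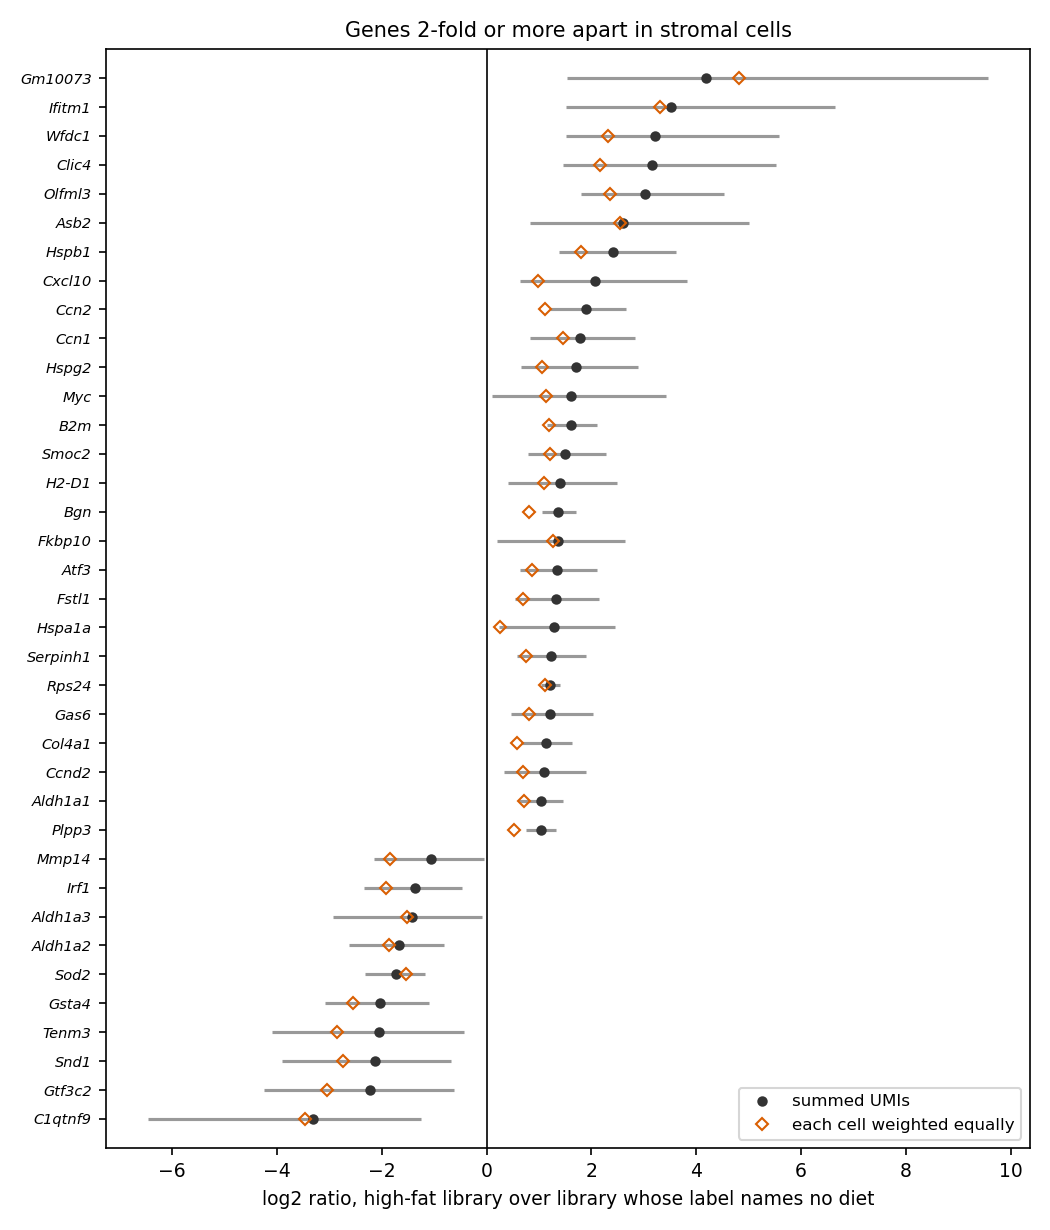
Log2 ratio of the high-fat library over the library with no named diet for listed and named genes 2-fold or more apart in stromal cells and within 2-fold in all other barcodes; dots are ratios of summed UMIs, bars their counting intervals and diamonds the ratio with each cell weighted equally. Diamonds lie nearer 0 than dots for most higher genes, as for Bgn (0.82 against 1.37), while for Gsta4 the diamond lies further from 0 than the dot (-2.55 against -2.03).

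In the other barcodes some of the higher genes were also 2-fold or more higher in the high-fat library, at low levels: Sct had 0.109 CPM (high-fat) and 0.0338 CPM (no named diet) there, G0s2 0.357 CPM in the high-fat library and 0.154 CPM in the other, Osr2 0.551 CPM in the high-fat library and 0.241 CPM in the other and Bst2 1.98 CPM in the high-fat library and 0.916 CPM in the other. For B2m, Bgn, Olfml3, Ccn2 and Ifitm1 the other barcodes were within 2-fold. Apod ran in opposite directions, with 0.908 CPM (high-fat) and 0.357 CPM (no named diet) in the other barcodes.

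Some of the higher and lower genes were looked at again within the 4 sub-clusters. Sct, Olfml3, Ifitm1, B2m, Bst2, H2-D1, Bgn, Ccn2, Smoc2, Osr2, G0s2, Plpp3, Serpinh1 and Loxl1 were higher in the high-fat library in 4 of 4 sub-clusters. Cxcl10, Mfap4, Hspg2, Atf3, Hspa1a, Col4a1 and Aldh1a1, also called higher, were so in 3 of 4. Aldh1a2, Aldh1a3, Gsta4, Sod2 and C1qtnf9 were higher in 0 of 4, and Apod, Irf1 and Mmp14 in 1 of 4. In sub-cluster 3 the rule gene Dcn also stood higher in the high-fat library, at 2202 CPM against 1097 CPM. A higher direction there is therefore not read gene by gene. These directions hold no count of animals, since each sub-cluster draws its cells from the same 2 libraries. They come from the cells in which the genes were called, so they are a description.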

How the data were processed

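Single-cell RNA libraries of mouse testis were made with a droplet kit after digestion with collagenase IV and DNase I, per the labels' protocols. The labels give germ cells as cell type and name no selection step. The deposited values are whole-number UMI counts, without normalisation, for each gene in each barcode. PISA 1.0 wrote them, per the file headers, while the submitters' processing notes name Cell Ranger 2.1.1. Aligner, build and annotation release: not given in the sources used here. Among deposited barcodes the smallest had 1025 UMIs in the high-fat library and 1000 in the other, so barcodes had been filtered before deposit.

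Counts were summed over the stromal cells of a library and scaled to a total of 1000000 UMIs (CPM), with exact Poisson intervals for levels, exact conditional binomial intervals for ratios and Clopper-Pearson intervals for shares, all at 95%. UMIs are molecules counted once, and the intervals cover counting error only. Genes with 20 or more UMIs over both libraries were measured. Those 2-fold or more apart with an interval that excluded 1 were called; this compares 2 libraries and is no test. Genes at 0 were set to a floor of 3 UMIs. The ratio and its interval were tested on simulated data.

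The named genes were the 20 leading genes outside the rule of stromal cells over other barcodes with 50 or more UMIs in each library, the 12 highest and 12 lowest called stroma-enriched genes (seen in 5 or more cells, with no cell holding over 1 in 3 of the UMIs, and 2-fold or more over other barcodes), the 5 highest and 5 lowest other called genes, and the called members of 21 gene lists. Some genes that these rules name or measure are not reported here. Stromal cells, lists and rules were chosen with earlier results of these data known.

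Doublets were called per library with Scrublet (expected rate 6%) and kept in the main values: 462 barcodes (3.65%) in the high-fat library and 517 (3.75%) in the other. Sub-clusters used 1000 variable genes, 20 components, 15 neighbours and Leiden resolution 0.5. Tools were Python 3.11.15, scanpy 1.11.5, igraph 0.11.9, numpy 2.4.6, scipy 1.17.1, pandas 2.3.3 and matplotlib 3.10.9. Alternatives covered the membership rule, depth, doublets, scaling, cell weighting, free RNA and the UMI filter.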

Additional observations from a re-analysis of the deposited data

How the results depend on the processing

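No paired analysis was possible because each group has 1 library and no result comes from a test. The ratio of stromal shares stayed within 1.11 to 1.25 under the other membership rules, without doublets and without cells that met another rule, and was 1.99 among barcodes of 2000 UMIs or more. The 382 higher genes became 146 when each cell was thinned to 1000 UMIs, 140 with a filter of 50 UMIs and 602 with no filter. The 307 lower genes became 99, 106 and 481 under these settings; fewer or more genes are then measured. With free RNA subtracted, 3159 genes were measured, of which 361 were higher and 380 lower; these held 226 of the 382 and 73 of the 307, and of 56 named genes still measured 55 kept their call, the exception being Mmp14. The log2 ratio of Fstl1 turned to -0.022 after thinning; the cause was not tested. Of 69 named genes, 26 lost their call under at least 1 of 14 settings, among them Plpp3, Aldh1a1, Col4a1, Osr2, Ccnd2, Bgn, Fkbp10, Gas6, Hspa1a, Serpinh1, Tcf7l2, Atf3, Fstl1, H2-D1, Loxl1, Mmp14, Aldh1a3, Apod, Ccn1, Cxcl10, G0s2, Gsta4, Irf1, Mfap4 and Myc. A setting in which a gene was no longer measured was not counted as a lost call, so the remaining genes did not all keep their call under 14 settings. Gm10073 was measured in 5 of them, C1qtnf9, Tnni3 and Tenm3 in 6, and Ifitm1 and Alpl in 10. The alternative without the member richest in myoid markers, the split by sub-cluster, the limit of 10 UMIs for a cell rich in myoid or pericyte markers and the limit to genes level in other barcodes were chosen after seeing the data. Under that last limit, 163 of 1856 stroma-enriched genes were higher and 35 lower. Low counts limit every gene named with fewer than 10 UMIs in a library.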
